A study of Arabidopsis thaliana with 27 samples.

Results

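The 167 probe sets described here are the transcripts that were higher in wild type callus of Arabidopsis thaliana 3 days after it was moved from callus medium to shoot medium and were still higher on day 6. A probe set was a member when the wild type mean on day 3 and the wild type mean on day 6 both exceeded the day 0 mean by at least 1.5 on the log2 scale. Of 22746 probe sets on the array, controls left out, 177 passed this threshold (0.778%). The 10 among them that stand for the response regulator genes ARR15 and RR16, the expansin genes EXPA7 and EXPA18, AT4G23670, AT4G23680, AT3G26450 and the peroxidase genes AT1G30870, AT3G49960 and AT5G17820 were left out by name (the rule also names bZIP44, which did not pass), which left 167. The probe set annotation gives 1 gene symbol or locus for 73 of the 167, several for 8 and none for 86, and members without a single name are given by their probe set. The members were chosen by their wild type values on days 0, 3 and 6, so the wild type changes are a description and carry no test. The tests below concern the mutants' own changes and the difference between the mutants.

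Hypocotyls of 12-day-old seedlings of the Columbia (Col-0) ecotype had spent 6 days on callus-inducing medium, and the callus was then cultured for 0, 3 or 6 days on shoot-inducing medium. The 3 genotypes were the wild type, the mutant labelled lba1-1/upf1-1 (here upf1-1) and the mutant upf3-1, each with 3 arrays per day, so 27 arrays fell into 9 groups. All groups shared the seedling age, both media and the array type, and each mutant is represented by 1 allele. For upf1-1 day 0 replicate 1, the source name, the genotype and the start of the title give upf1-1 and the rest of the title says wild type, and the array was kept in upf1-1. UPF3, the gene mutated in upf3-1, read 5.70 to 6.38 on the 9 upf3-1 arrays and 8.98 to 9.73 on the 18 others. Day 6 is taken from the sample labels, since the text on the design names days 0 and 3 only. Callus is a mixture of cells, and in such bulk samples fewer cells of a type and less RNA per cell cannot be told apart.

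UPF1 and UPF3 are core factors of nonsense-mediated mRNA decay, the pathway that degrades transcripts with premature stop codons and a set of normal transcripts with similar features. Callus-inducing medium is rich in auxin and gives tissue with features of a root primordium. Shoot-inducing medium has a high ratio of cytokinin to auxin and leads this tissue towards shoots. Early transcript changes on that medium include the response to cytokinin, the loss of auxin-responsive transcripts and the differentiation of callus cells, among them cells with root hairs.

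The members started low in the wild type. Their median level on day 0 was 5.10 (quartiles 4.24 to 6.53), against 6.56 for all 22746 probe sets, and 56 of the 167 were at or above a log2 level of 6 on day 0, against 155 on day 6. Their wild type differences from day 0 ranged from 1.502 to 4.48 on day 3 (median 2.16) and from 1.51 to 6.18 on day 6 (median 2.24). The largest named difference belonged to AT1G27030, at 4.45 on day 3 and 4.71 on day 6. The unnamed probe set 245928_s_at was 2.61 higher on day 3 and 6.18 higher on day 6. The members just inside the threshold had a smaller difference of 1.502 to 1.513 and the probe sets just outside it 1.494 to 1.499. GSTU27, a glutathione transferase gene, and RALFL32, a signalling peptide gene, were among the named genes just outside.

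In the wild type the median over the members moved from 5.04 ± 0.205 on day 0 to 7.46 ± 0.110 on day 3 and 7.78 ± 0.0855 on day 6 (mean ± SD of 3 array medians). In upf1-1 the same median was 5.08 ± 0.0909, 6.999 ± 0.112 and 7.49 ± 0.245. In upf3-1 it was 5.34 ± 0.00987, 7.73 ± 0.211 and 7.92 ± 0.125. On day 3 the array medians of the 3 genotypes fell in the order upf1-1, wild type, upf3-1, with upf1-1 apart from both others. The wild type and upf3-1 arrays overlapped on that day, at 7.33 to 7.54 and 7.49 to 7.86. The wild type arrays chose the members for high day 3 values, so nothing is read from their place in this order. It also depends on the scaling: with arrays centred on spiked-in control RNA, the day 3 median of upf1-1 minus wild type moved from -0.25 to -0.057.

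**Figure D1:**
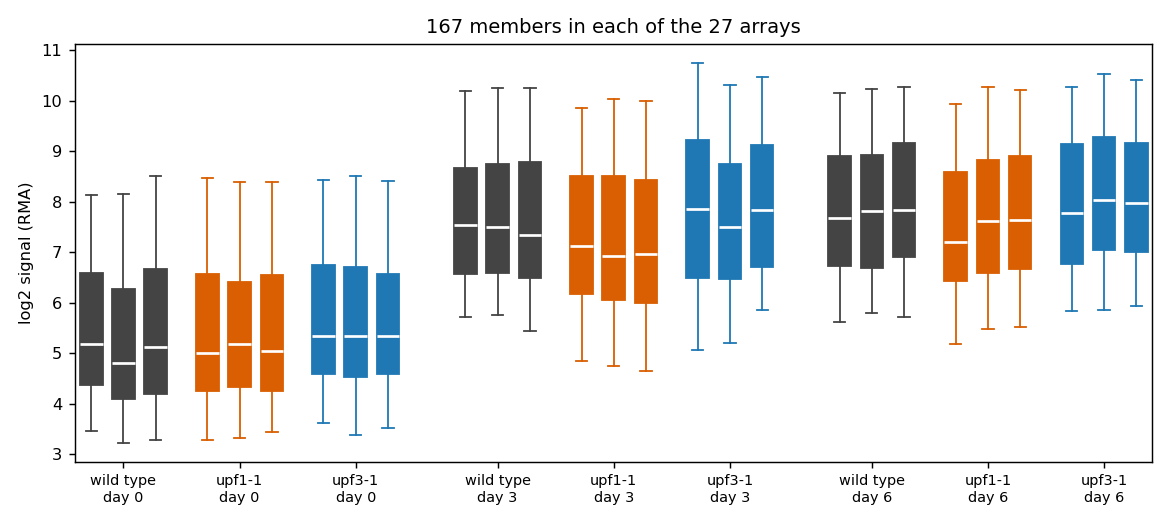
Log2 level of the 167 members on each of the 27 arrays, in 9 groups by genotype and day on shoot-inducing medium. Boxes span the quartiles, white lines mark the median and whiskers run from the 5th to the 95th percentile. Array medians move from about 5.04 on wild type day 0 to 7.78 on day 6, and lie lower on upf1-1 day 3 (6.999) than on wild type day 3 (7.46). The wild type arrays chose the members, so nothing is read from that gap.

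Nearly all members rose in both mutants as well. Called here means an adjusted p under 0.05 in limma's moderated test, adjusted by Benjamini and Hochberg over all 22746 probe sets. In upf1-1, 151 of 167 were called higher on day 3 than on day 0, where 12.0% of all probe sets were, and 163 were called higher on day 6 (15.5% of all). In upf3-1 the counts were 155 on day 3 (15.6% of all) and 163 on day 6 (19.5% of all). None of the 167 was called lower in these 4 comparisons, where 12.2%, 16.7%, 18.6% and 22.7% of all probe sets were. Nothing in the labels says whether the replicates are separate cultures, and the p-values then cover no more than the spread among these arrays, which may be technical.

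The size of the change differed between the mutants and the days. The median change of the members in upf1-1 was 1.62 on day 3 and 2.05 on day 6, and in upf3-1 it was 1.90 and 2.18. The median change of all probe sets lay between -0.02 and 0.01 in these comparisons. A change of at least 1 was reached in upf1-1 by 145 members on day 3 and 160 on day 6, and in upf3-1 by 151 and 164. The change was smaller than the wild type change for 139 of 167 members in upf1-1 on day 3 and for 119 on day 6, and in upf3-1 for 100 and 95. Because the members were chosen for a large wild type change, nothing is read from these shortfalls.

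Levels beside the wild type on the same day are likewise a description, because the wild type arrays chose the members for low day 0 and high later values. The median of upf1-1 minus wild type was 0.15 on day 0, -0.25 on day 3 and -0.23 on day 6. That of upf3-1 minus wild type was 0.27, 0.19 and 0.09. These medians depend on the scaling: with arrays centred on spiked-in control RNA they were 0.48 and -0.057 for upf1-1 on days 0 and 3, and 0.53, 0.50 and 0.23 for upf3-1. On day 3, 66 members had all upf1-1 arrays below all wild type arrays, where 17.3% of all probe sets did, and 11 had them all above (16.0% of all). For upf3-1 on the same day, 37 were below (22.0% of all) and 59 above (16.2% of all). On day 6, 53 members lay below and 21 above the wild type in upf1-1 (16.0% and 15.9% of all), and 14 lay below and 44 above in upf3-1 (21.0% and 16.8% of all). Because the wild type arrays chose the members, nothing is read from these counts.

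**Figure D2:**
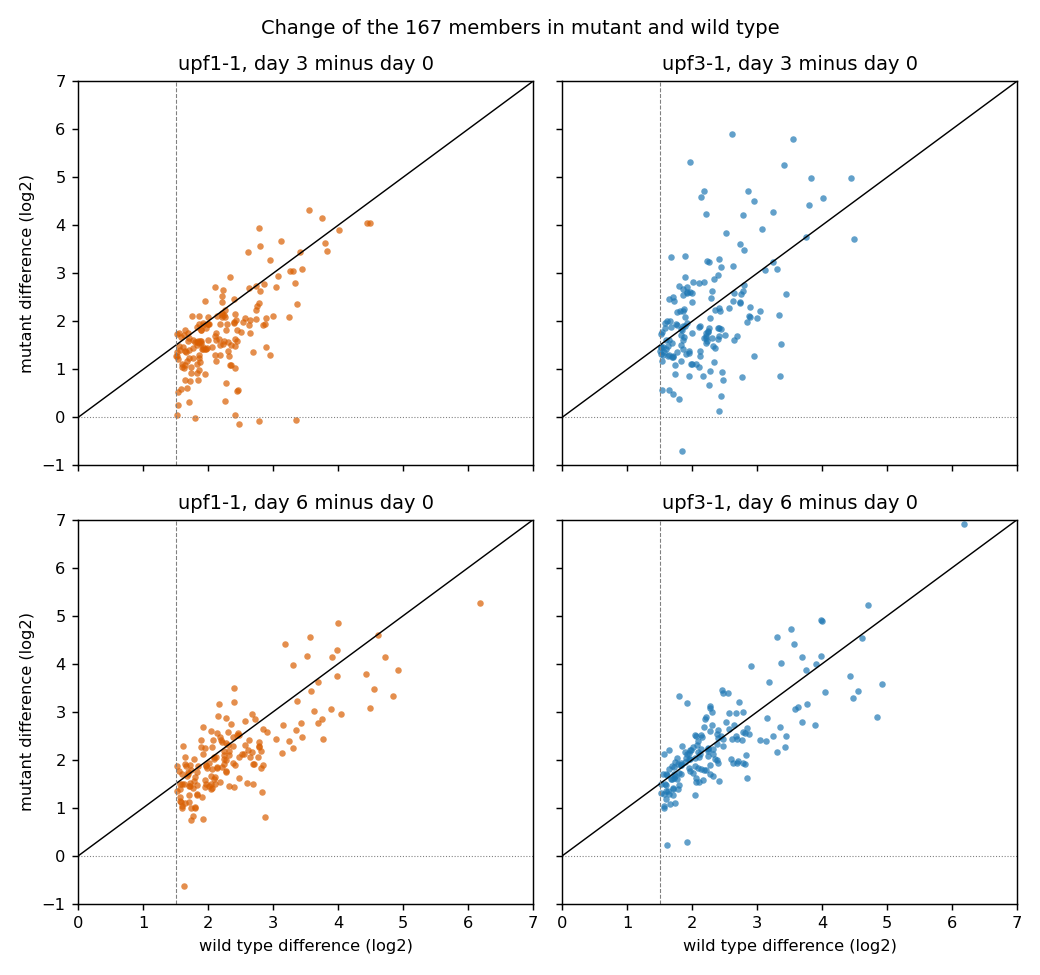
Change from day 0 in each mutant (vertical axis, log2) against the change in the wild type (horizontal axis, log2) for the 167 members, on days 3 and 6. The 1.5 threshold on the wild type axis chose the members; on day 3 in upf1-1, 139 of 167 points lie below the line of equal change.

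Cell wall and cell surface genes formed a class of 8 named members, and all 8 were called higher in both mutants on both days. The role classes were assigned from known gene functions after the members' values had been seen. Of all 167 members, 90.4% and 97.6% were called higher in upf1-1 on days 3 and 6, and 92.8% and 97.6% in upf3-1. Class counts of such calls, here and below, stand beside these shares and are not read as a trait of a class. In the wild type the median change of the 8 wall and surface genes was 2.04 on day 3 and 3.095 on day 6, against 1.81 and 2.42 in upf1-1, and 1.70 and 2.58 in upf3-1. AT4G26010 encodes a class III peroxidase of root hairs, and its wild type arrays read 4.30, 3.88 and 3.73 on day 0, then 6.73, 6.65 and 6.71 on day 3, then 7.60, 7.97 and 8.48 on day 6. Its upf1-1 arrays read 3.93, 4.22 and 4.54 on day 0, then 6.72, 6.49 and 6.15 on day 3, then 6.78, 7.40 and 7.35 on day 6. Its upf3-1 arrays read 4.203, 4.52 and 4.80 on day 0, then 7.26, 6.69 and 6.79 on day 3, then 7.53, 8.08 and 8.12 on day 6. Levels climbed in each genotype with no overlap between days, and on day 6 all upf1-1 arrays lay below all wild type and upf3-1 arrays. The change to day 6 was 2.95 (SE 0.23, limma adjusted p = 6.45e-10) in upf1-1 and 3.40 (SE 0.23, limma adjusted p = 3.98e-11) in upf3-1, beside 4.05 in the wild type. The difference of these mutant changes, 0.46 (SE 0.32, limma adjusted p = 0.554), did not pass the test.

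GH9C1, an endo-glucanase gene of root hairs, read 4.48, 4.65 and 4.13 on day 0, then 6.76, 6.66 and 6.59 on day 3, then 7.79, 7.99 and 8.33 on day 6 in the wild type. In upf1-1 it read 4.13, 4.80 and 4.56 on day 0, then 6.86, 6.53 and 6.34 on day 3, then 7.12, 7.77 and 7.65 on day 6. In upf3-1 it read 4.87, 4.95 and 4.95 on day 0, then 6.96, 6.78 and 6.59 on day 3, then 7.76, 8.14 and 8.14 on day 6. Each genotype climbed in 2 steps, and the change to day 6 was 3.02 (SE 0.18, limma adjusted p = 1.01e-11) in upf1-1 and 3.09 (SE 0.18, limma adjusted p = 4.26e-12) in upf3-1. Further wall genes were AT5G04960, of the pectin methylesterase family, with changes to day 6 of 2.62 and 2.68 in upf1-1 and upf3-1, and AT2G47540, of the pollen Ole e 1 and extensin family, with 2.18 and 1.90. AT3G61490, of the pectin lyase-like family, was 2.84 higher on day 6 in the wild type, and rose by 1.88 in upf1-1 and 1.62 in upf3-1. AT4G25790, a member of the CAP superfamily of secreted proteins, was 3.44 higher in the wild type and rose by 2.47 and 2.48.

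GH9C1, AT4G26010, AT4G25790 and AT5G04960 belonged to a group of 20 members whose wild type level on day 6 was above that on day 3 by at least 1, as did AT2G34910 and 15 members without a single name. Among all probe sets 1.02% met that limit. Wild type arrays chose this group, so its wild type median climb of 1.46 between day 3 and day 6 is a description, and nothing is read from its size beside the mutants' climbs. The median climb was 0.93 in upf1-1, with 7 of 20 at 1 or more, and 1.16 in upf3-1, with 15 of 20. All day 6 arrays lay above all day 3 arrays for 18 of the 20 in upf1-1 and 19 in upf3-1, where 9.9% and 14.6% of all probe sets had such a separation.

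In a smaller group of 17 members, 1.71% of all probe sets by the same limit, the wild type level fell back by at least 0.5 between day 3 and day 6 (median -0.81). The median in the mutants was -0.15 in upf1-1 and -0.20 in upf3-1. Wild type arrays chose this group too, so nothing is read from the smaller fall in the mutants. Glutaredoxins were among these. Glutaredoxins are small proteins that use glutathione to reduce other proteins, and plants have a large class of them that also acts in nitrogen signalling and development. AT4G15680, AT4G15690 and AT4G15700 lie next to each other on chromosome 4 in the RefSeq gene table, with 0 coding genes between them. Signals of such close copies can be shared between probe sets, although none of the 3 carries a suffix that marks cross-hybridisation.

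AT4G15680 read 5.48, 5.71 and 5.69 on day 0, then 8.56, 8.73 and 8.10 on day 3, then 7.46, 7.76 and 7.56 on day 6 in the wild type. In upf1-1 it read 5.70, 5.40 and 5.75 on day 0, then 7.36, 7.63 and 7.62 on day 3, then 7.46, 7.69 and 7.35 on day 6, and in upf3-1 5.26, 4.74 and 5.19 on day 0, then 7.11, 7.25 and 6.75 on day 3, then 7.46, 6.90 and 7.46 on day 6. All wild type day 3 arrays were above all mutant day 3 arrays, and on day 6 the ranges of the genotypes overlapped or touched. It rose on day 3 by 1.92 (SE 0.17, limma adjusted p = 1.32e-08) in upf1-1 and 1.97 (SE 0.17, limma adjusted p = 5.36e-09) in upf3-1, beside a wild type difference of 2.84. AT4G15690 changed on day 3 by 2.89 in the wild type, 2.06 in upf1-1 and 2.29 in upf3-1. AT4G15700 started at 2.73 in the wild type, the lowest day 0 mean of the 167 members, where the lowest of all probe sets was 2.09, so the size of its change is uncertain. It was 2.96 higher on day 3, against a rise of 1.29 in upf1-1 and 1.28 in upf3-1. The 3 neighbours may share signal, and no order is read from the wild type changes that chose them.

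AT3G62960, a glutaredoxin gene on chromosome 3, differed between the mutants. Its day 3 arrays read 10.19, 10.32 and 10.07 in the wild type, 9.10, 9.29 and 9.17 in upf1-1 and 8.09, 8.68 and 8.24 in upf3-1, with no overlap between genotypes. The level in upf3-1 minus that in upf1-1 was -0.85 (SE 0.14, limma adjusted p = 0.000434). It was 1 of 3 members called lower in upf3-1 than in upf1-1 on day 3. GSTU20, a tau class glutathione transferase, went the other way. Its day 3 arrays read 6.57, 6.94 and 6.40 in the wild type, 7.13, 6.52 and 6.88 in upf1-1 and 8.77, 8.09 and 8.41 in upf3-1. All upf3-1 arrays were above all others, and the difference from upf1-1 was 1.58 (SE 0.19, limma adjusted p = 1.95e-05) on day 3 and 0.59 (SE 0.19, limma adjusted p = 0.106) on day 6, the second not called. All 5 members of the redox class were called higher than day 0 in both mutants on both days.

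Enzymes of specialised metabolism formed the largest class, with 15 named members. In upf1-1, 14 of 15 were called higher on day 3 and 15 on day 6, and in upf3-1 15 were on both days. In the wild type their median change was 2.23 on day 3 and 2.16 on day 6, against 1.94 and 2.35 in upf1-1, and 2.81 and 2.48 in upf3-1. On day 3, 12 of the 15 were called higher in upf3-1 than in upf1-1 and 0 lower, where 5.5% of all probe sets were called higher and 4.5% lower. The median difference was 1.04. These are differences in level. The difference of the changes from day 0 was called for 0 of the 15 on day 3 and for 0 on day 6. Among all probe sets, 1.45% and 0.677% were called as rising more in upf3-1 on those days. On both mutants' day 3, replicate 1 read highest for 13 of the 15, so these members moved together from array to array. Of all 167 members, replicate 1 read highest for 84 on upf1-1 day 3 and 85 on upf3-1 day 3, so the movement was not confined to this class. The part of that shared movement in the difference was not tested.

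AT4G11190 encodes a dirigent protein, of a family that directs the coupling of phenylpropanoid radicals. Its wild type arrays read 3.33, 2.99 and 2.99 on day 0, then 6.74, 7.21 and 6.02 on day 3, then 5.999, 6.30 and 6.92 on day 6. Its upf1-1 arrays read 3.44, 3.41 and 3.41 on day 0, then 8.23, 7.52 and 7.48 on day 3, then 6.86, 7.62 and 7.68 on day 6. Its upf3-1 arrays read 3.38, 3.65 and 2.91 on day 0, then 9.47, 8.72 and 9.13 on day 3, then 7.61, 7.93 and 8.08 on day 6. On day 3 the 3 genotypes were fully separated, lowest in the wild type and highest in upf3-1. The change to day 3 was 4.32 (SE 0.28, limma adjusted p = 7.79e-11) in upf1-1 and 5.79 (SE 0.28, limma adjusted p = 4.79e-13) in upf3-1, beside 3.56 in the wild type. The difference of these mutant changes was not called. The level on day 3 was higher in upf3-1 than in upf1-1 by 1.37 (SE 0.28, limma adjusted p = 0.00329).

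AT1G14120, of the 2-oxoglutarate-dependent oxygenase family, read 3.11, 3.69 and 3.41 in the wild type, 3.29, 3.12 and 3.43 in upf1-1 and 3.73, 3.38 and 3.73 in upf3-1 on day 0. On day 3 it read 6.58, 6.90 and 6.49, 6.68, 6.31 and 5.99 and 8.29, 7.22 and 8.13 in the same order. The upf3-1 arrays were all above the others, and the difference from upf1-1 was 1.55 (SE 0.25, limma adjusted p = 0.000407). On day 6 the genotypes read 7.20, 7.30 and 7.64, 6.46, 7.01 and 7.61 and 7.62, 7.97 and 7.75, and the difference of 0.75 (SE 0.25, limma adjusted p = 0.116) was not called.

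AT5G37990 and AT5G38020 encode methyltransferases of the family that makes methyl esters of small acids, and lie on chromosome 5 with 2 coding genes between them. AT5G37990 rose by 3.44 in upf1-1 and 5.26 in upf3-1 on day 3. On day 3 its wild type arrays read 7.54, 8.13 and 7.03, its upf1-1 arrays 7.74, 5.96 and 7.20 and its upf3-1 arrays 9.56, 8.09 and 8.96. The arrays of each genotype spread by more than 1, and the difference between the mutants, 1.90 (SE 0.38, limma adjusted p = 0.00223), lost its call under 1 of 12 alternatives (limma adjusted p from 0.000231 to 0.0727). The alternatives are other scalings of the arrays, other forms of the fit and leaving out single arrays. AT5G38020 was higher in upf3-1 than in upf1-1 on day 3 by 1.17 (SE 0.24, limma adjusted p = 0.00331). Both neighbours had upf3-1 above upf1-1 on that day and no called difference on day 6.

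AT2G23540 and AT5G37690 encode GDSL-type lipases, and on day 3 upf3-1 exceeded upf1-1 by 1.64 (SE 0.35, limma adjusted p = 0.00415) and 1.44 (SE 0.21, limma adjusted p = 0.000127). AT3G57020, of the strictosidine synthase-like family, and AT1G06640, another 2-oxoglutarate-dependent oxygenase, were higher in upf3-1 by 0.98 (adjusted p = 0.00128) and 1.04 (adjusted p = 9.84e-05) in limma. These 4 differences stayed called under every alternative tried. AT1G66800, a relative of cinnamoyl-CoA reductases, was 1.03 higher, a call lost under 5 of 12 alternatives (limma adjusted p from 0.00168 to 0.121). AT3G50300, an acyltransferase gene, was 0.76 higher, lost under 4 of 12 alternatives (limma adjusted p from 0.00129 to 0.117), and AT1G72110, of the wax ester synthase family, 0.57 higher, lost under 6 of 12 alternatives (limma adjusted p from 0.00331 to 0.22). AT3G50300 and AT5G37690 were already higher in upf3-1 on day 0, by 0.78 (limma adjusted p = 0.0192) and 0.74 (limma adjusted p = 0.0431). These day 0 calls were lost under 5 and 6 of 12 alternatives (limma adjusted p from 0.0133 to 0.115 and from 0.00373 to 0.21).

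The 3 enzymes of the class with no called difference between the mutants on day 3 were AT5G16010, AT3G46700 and AT5G36160. AT5G36160, a tyrosine aminotransferase gene, differed by 0.26 (SE 0.13, limma adjusted p = 0.209), and AT3G46700, a UDP-glycosyltransferase gene, by 0.33 (SE 0.16, limma adjusted p = 0.23). AT5G16010, related to steroid reductases, differed by -0.21 (SE 0.12, limma adjusted p = 0.322). Each rose in both mutants, and AT5G16010 changed to day 6 by 1.94 in upf1-1 and 2.0 in upf3-1, beside 2.39 in the wild type.

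Transport genes were represented by 5 named members, all called higher in both mutants on both days. OCT5, an organic cation transporter gene, changed on day 3 by 1.82 in the wild type, 1.87 in upf1-1 and 1.72 in upf3-1. AT5G18840, a sugar transporter-like gene, was 1.92 higher on day 6 in the wild type and rose by 2.69 in upf1-1 and 3.17 in upf3-1. AT3G21690, of the MATE family of efflux carriers, and AT4G34950, of the major facilitator family, rose on day 6 by 1.46 and 1.11 in upf1-1 and by 1.73 and 1.42 in upf3-1. The class had 1 called difference between the mutants. AT1G72140, of the nitrate and peptide transporter family, read 7.04, 7.19 and 6.86 in the wild type, 6.97, 6.16 and 6.66 in upf1-1 and 8.85, 7.49 and 8.14 in upf3-1 on day 3, where upf3-1 exceeded upf1-1 by 1.57 (SE 0.28, limma adjusted p = 0.00104).

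Regulators formed a class of 8. In each mutant 6 of 8 were called higher on day 3 and 8 on day 6. Between day 0 and days 3 and 6 their median change was 1.77 and 2.09 in the wild type, 1.01 and 1.59 in upf1-1 and 1.45 and 1.76 in upf3-1. NGA1 encodes a B3 domain transcription factor of the NGATHA family, which shapes leaf margins and the style. Its wild type arrays read 4.39, 4.32 and 4.51 on day 0, then 6.48, 6.58 and 6.53 on day 3, then 6.43, 6.76 and 6.77 on day 6. Its upf1-1 arrays read 4.43, 4.43 and 4.34 on day 0, then 5.88, 6.13 and 6.47 on day 3, then 6.34, 6.36 and 6.82 on day 6. Its upf3-1 arrays read 4.995, 5.03 and 4.66 on day 0, then 6.29, 6.17 and 6.38 on day 3, then 7.06, 7.08 and 7.28 on day 6. All 3 genotypes reached their day 3 range without overlap with day 0, and on day 6 the upf3-1 arrays lay above all others. The change to day 6 was 2.11 (SE 0.14, limma adjusted p = 2.5e-11) in upf1-1 and 2.25 (SE 0.14, limma adjusted p = 5.97e-12) in upf3-1. On day 6 upf3-1 exceeded upf1-1 by 0.64 (SE 0.14, limma adjusted p = 0.0108), a call lost under 5 of 12 alternatives (limma adjusted p from 0.00244 to 0.116). It was already higher in upf3-1 on day 0, by 0.50 (SE 0.14, limma adjusted p = 0.0353), a call lost under 6 of 12 alternatives (limma adjusted p from 0.0173 to 0.53).

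The gene printed as tny in the annotation (TINY, an AP2/ERF transcription factor gene) read 7.62, 8.20 and 7.52 in the wild type, 6.86, 6.56 and 7.00 in upf1-1 and 7.42, 7.29 and 7.37 in upf3-1 on day 3. All mutant arrays were below all wild type arrays. It rose by 1.28 (SE 0.16, limma adjusted p = 2.45e-06) in upf1-1 and 1.49 (SE 0.16, limma adjusted p = 1.77e-07) in upf3-1, beside 2.32 in the wild type. AT2G40200, a bHLH transcription factor gene, rose on day 6 by 2.201 in upf1-1 and 2.42 in upf3-1, beside 2.61 in the wild type. AT3G22550, of the FLZ zinc finger family, rose by 1.52 and 2.02, beside 2.59. AT3G28040, a leucine-rich repeat receptor kinase gene, rose by 1.27 and 1.39, beside 1.70.

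AT4G37180, a MYB-related transcription factor gene, was the regulator whose change to day 3 differed between the mutants. It read 6.16, 6.003 and 6.04 on day 0, then 6.56, 6.66 and 6.75 on day 3, then 7.13, 7.60 and 7.34 on day 6 in upf1-1. In upf3-1 it read 5.35, 5.35 and 5.30 on day 0, then 7.53, 7.07 and 7.25 on day 3, then 6.83, 7.23 and 7.03 on day 6. The upf3-1 arrays were below upf1-1 on day 0 and above it on day 3. It rose by day 3 by 0.59 in upf1-1 and 1.95 in upf3-1, and the difference of the changes was 1.37 (SE 0.22, limma adjusted p = 0.00122). That difference stayed called under every alternative tried. On day 6 the difference of the changes was 0.41 (SE 0.22, limma adjusted p = 0.406), not called.

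**Figure D3:**
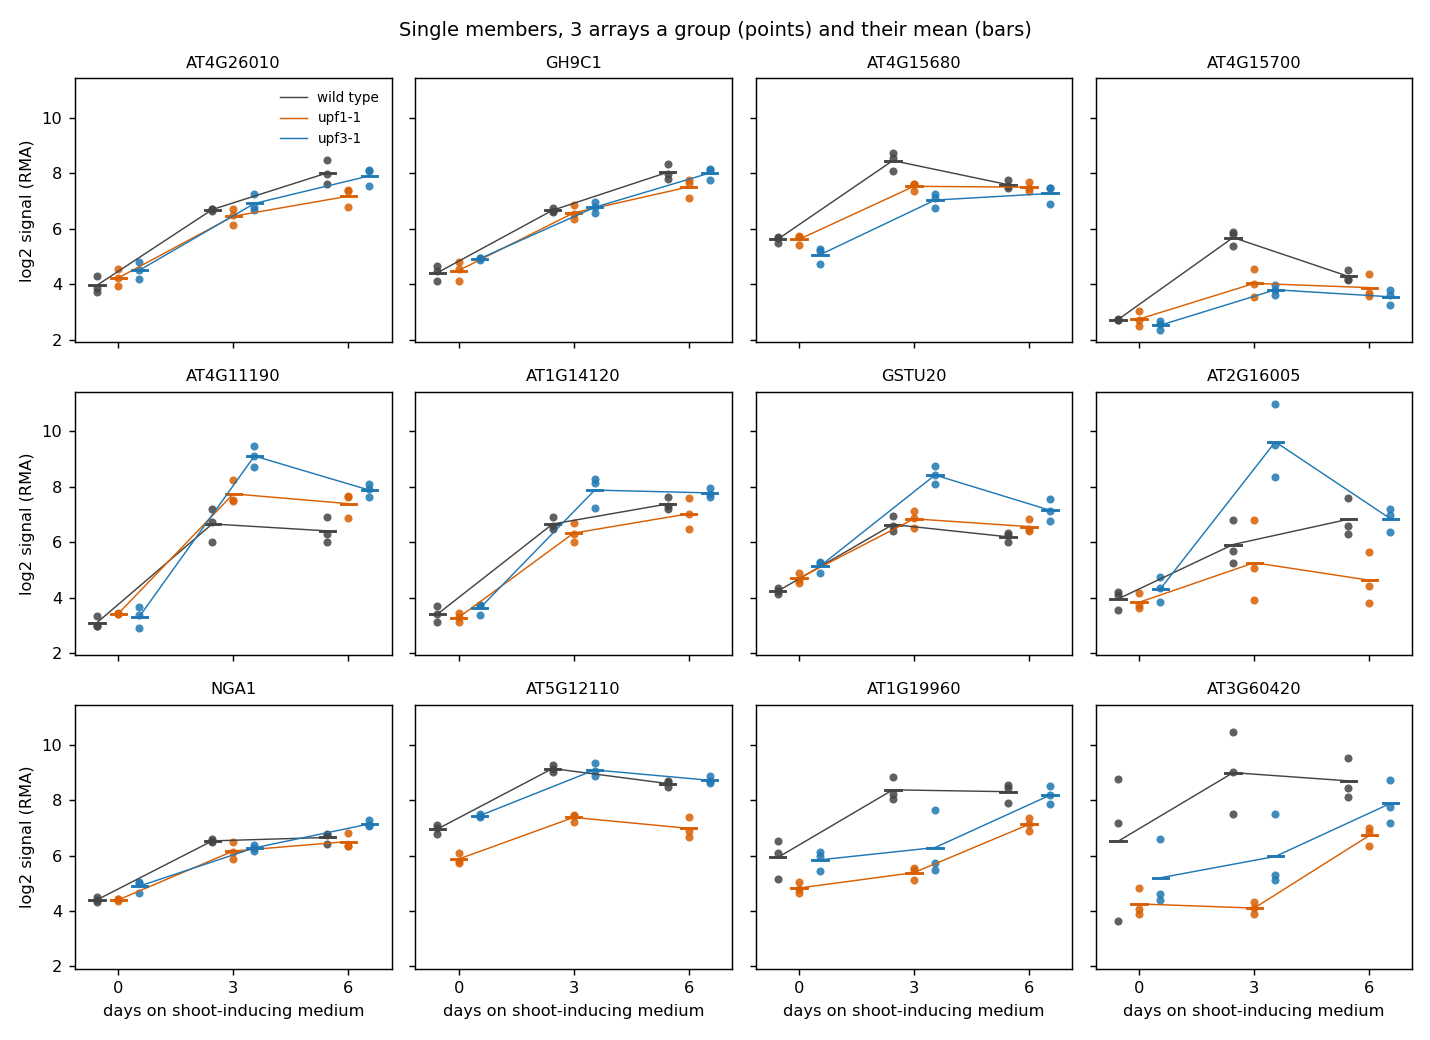
Log2 level of 12 members on each array, by day on shoot-inducing medium, with wild type, upf1-1 and upf3-1 side by side. Points are arrays and bars are group means; AT2G16005 has its highest values on upf3-1 day 3, AT5G12110 is lowest in upf1-1 on every day, and AT1G19960 and AT3G60420 change late in both mutants.

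Stress and defence genes formed a class of 6, of which 5 were called higher in upf1-1 on each day, and 5 on day 3 and 4 on day 6 in upf3-1. AT2G19310 and AT5G51440 encode small heat shock proteins. AT2G19310 rose on day 6 by 1.71 (SE 0.19, limma adjusted p = 1.82e-07) in upf1-1 and 1.70 (SE 0.19, limma adjusted p = 1.13e-07) in upf3-1, close to the wild type difference of 1.59. AT5G51440 started higher in the mutants, with day 0 arrays at 4.43, 4.04 and 3.98 in the wild type, 5.22, 5.07 and 4.91 in upf1-1 and 5.50, 5.67 and 5.63 in upf3-1. On day 6 it read 6.90, 5.68 and 5.62, 5.92, 5.73 and 5.85 and 6.05, 5.76 and 5.86, so the genotypes met. Its change to day 6 was 1.92 in the wild type, 0.77 (SE 0.24, limma adjusted p = 0.0138) in upf1-1, a call lost under 1 of 12 alternatives (limma adjusted p from 2.6e-06 to 0.0572), and 0.29 (SE 0.24, limma adjusted p = 0.348) in upf3-1, not called. AT3G28540, an AAA-type ATPase gene, rose on day 6 by 2.19 in upf1-1 and 2.12 in upf3-1. AT3G03270, of the universal stress protein family, rose by 1.42 and 1.54, beside wild type differences of 2.32 and 2.05.

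Phosphatase and related genes numbered 4, and all 4 were called higher in both mutants on both days. AT4G29270, of the acid phosphatase family, had day 3 arrays at 9.84, 10.18 and 9.72 in the wild type, 10.03, 9.43 and 9.66 in upf1-1 and 11.43, 10.61 and 11.17 in upf3-1. All upf3-1 arrays were above all others, and the difference from upf1-1 was 1.37 (SE 0.21, limma adjusted p = 0.000198). AT1G14240, an apyrase gene, and AT4G29700, of the alkaline phosphatase-like family, were higher in upf3-1 by 0.92 and 0.97, and the second call was lost under 1 of 12 alternatives (limma adjusted p from 0.00133 to 0.052). AT3G62040, of the haloacid dehalogenase-like hydrolases, was lower in upf3-1, with a difference of -0.45 (SE 0.14, limma adjusted p = 0.0474), a call lost under 8 of 12 alternatives (limma adjusted p from 0.0274 to 0.439). AT4G29270 was already higher in upf3-1 than in upf1-1 on day 0, by 0.73 (limma adjusted p = 0.0434). That call was lost under 9 of 12 alternatives (limma adjusted p from 0.002 to 0.279).

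A further 22 named members were given no class. In upf1-1, 17 of the 22 were called higher on day 3 and 21 on day 6, and in upf3-1, 19 and 22. AT5G38980 and AT1G49500, to which no role is given here, were among the named members with the largest wild type differences. AT5G38980 started higher in the mutants, with day 0 arrays at 4.74, 4.12 and 4.99 in the wild type, 6.42, 6.59 and 6.25 in upf1-1 and 5.42, 6.51 and 6.26 in upf3-1. It was 3.77 higher on day 6 in the wild type and rose by 2.42 (SE 0.25, limma adjusted p = 5.83e-08) in upf1-1 and 3.17 (SE 0.25, limma adjusted p = 4.73e-10) in upf3-1. AT1G49500 was 3.36 higher in the wild type and rose by 3.22 in upf1-1 and 4.01 in upf3-1. AT4G39190, also without a role given here, had small rises on day 6, of 1.03 (SE 0.20, limma adjusted p = 0.000296) in upf1-1 and 1.17 (SE 0.20, limma adjusted p = 4.29e-05) in upf3-1, beside 1.59 in the wild type.

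AT4G13860, which encodes a glycine-rich RNA-binding protein, read 7.02, 7.42 and 6.71 on day 3 in the wild type, 6.19, 5.78 and 5.99 in upf1-1 and 7.51, 6.87 and 7.34 in upf3-1. Arrays of upf1-1 were below all others on that day. The change to day 3 was 1.57 in upf1-1 and 2.62 in upf3-1, and their difference, 1.05 (SE 0.27, limma adjusted p = 0.0429), lost its call under 9 of 18 alternatives (limma adjusted p from 0.00871 to 0.137). AT2G43535, a defensin-like gene, rose on day 6 by 2.12 in upf1-1 and 2.78 in upf3-1, beside 2.51 in the wild type. AT2G45750, which encodes a putative methyltransferase, rose by 1.91 and 1.98, beside 2.71.

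The 94 members with several symbols or none were called higher in similar numbers. In upf1-1, 87 were called on day 3 and 92 on day 6 (12.0% and 15.5% of all probe sets), and in upf3-1, 88 and 92 (15.6% and 19.5% of all). Their median change was 2.11 and 2.26 on days 3 and 6 in the wild type, 1.63 and 2.06 in upf1-1, and 1.90 and 2.27 in upf3-1. On day 3, 37 of the 94 were called higher in upf3-1 than in upf1-1 and 1 lower, where 5.5% and 4.5% of all probe sets were. Among all 167 members, 42.5% were called higher and 1.8% lower.

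A few members were not called on day 3. In upf1-1, 16 of 167 were not (75.9% of all probe sets), and in upf3-1, 12 were not (65.8% of all). AT2G25510, AT1G19960, AT3G60420, AT1G49750 and AT3G47480 are the named ones that were called in neither mutant on day 3 and higher in both on day 6, and they were picked out after their values were seen. AT2G25510, to which no role is given here, had the largest wild type difference of these, and its wild type arrays read 4.66, 4.22 and 5.10 on day 0, then 8.52, 7.13 and 8.35 on day 3, then 7.53, 6.76 and 7.76 on day 6. Its upf1-1 arrays read 4.16, 4.17 and 3.91 on day 0, then 3.91, 4.19 and 3.99 on day 3, then 5.27, 5.56 and 5.86 on day 6, and its upf3-1 arrays 4.30, 4.43 and 4.06 on day 0, then 4.83, 4.05 and 6.46 on day 3, then 5.51, 6.87 and 6.19 on day 6. In upf1-1 the day 3 arrays stayed near the day 0 range, and in upf3-1 replicate 3 was farthest above it on day 3. Its change to day 3 was -0.05 (SE 0.43, limma adjusted p = 0.956) in upf1-1 and 0.85 (SE 0.43, limma adjusted p = 0.141) in upf3-1, and to day 6 it was 1.49 (SE 0.43, limma adjusted p = 0.0102) and 1.93 (SE 0.43, limma adjusted p = 0.000862).

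AT1G19960, also without a role given here, read 5.03, 4.67 and 4.79 on day 0, then 5.12, 5.48 and 5.54 on day 3, then 6.89, 7.13 and 7.35 on day 6 in upf1-1. In upf3-1 it read 5.97, 6.12 and 5.45 on day 0, then 5.49, 5.72 and 7.65 on day 3, then 8.18, 8.50 and 7.86 on day 6. In the wild type it read 6.54, 5.14 and 6.11 on day 0, then 8.22, 8.04 and 8.85 on day 3, then 8.45, 7.90 and 8.56 on day 6. The wild type day 3 and day 6 arrays overlapped, while in each mutant all day 6 arrays lay above all day 3 arrays. The upf1-1 day 6 arrays stayed below all wild type day 6 arrays. The change to day 6 was 2.30 (SE 0.39, limma adjusted p = 7.16e-05) in upf1-1 and 2.33 (SE 0.39, limma adjusted p = 3.61e-05) in upf3-1. AT1G49750, a leucine-rich repeat protein gene, changed by 0.26 in upf1-1 and 0.58 in upf3-1 on day 3, neither called, and rose by 1.83 and 1.82 on day 6, beside wild type differences of 1.54 and 2.14.

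AT3G60420, of the phosphoglycerate mutase-like family, read 7.17, 3.63 and 8.74 on day 0, then 9.01, 7.51 and 10.44 on day 3, then 9.53, 8.13 and 8.42 on day 6 in the wild type. In upf1-1 it read 4.83, 3.88 and 4.06 on day 0, then 4.098, 4.32 and 3.90 on day 3, then 6.85, 6.34 and 6.98 on day 6, and in upf3-1 6.59, 4.60 and 4.40 on day 0, then 5.11, 5.29 and 7.497 on day 3, then 7.16, 8.73 and 7.74 on day 6. In the wild type, replicates of day 0 and of day 3 differed by more than the day means did, while in upf1-1 the replicates of each day lay within 1 of each other. Its calls on day 6 were lost under 6 of 12 alternatives (limma adjusted p from 8.17e-05 to 0.111) in upf1-1 and 3 of 12 alternatives (limma adjusted p from 0.000144 to 0.0872) in upf3-1. AT3G47480, a calcium-binding EF-hand protein gene, changed to day 6 by 1.67 (SE 0.53, limma adjusted p = 0.0174) in upf1-1, lost under 2 of 12 alternatives (limma adjusted p from 0.000159 to 0.0846), and by 1.61 (SE 0.53, limma adjusted p = 0.0166) in upf3-1, lost under 2 of 12 alternatives (limma adjusted p from 5.06e-05 to 0.0968).

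AT3G60420 and AT3G47480 were 2 of 11 members whose wild type day 0 arrays spanned more than 1.5, and 59 of all 22746 probe sets spanned as much. The other named ones were AT3G26470, of the RPW8 powdery mildew resistance family, AT3G28510, another AAA-type ATPase gene, and AT3G13610, which encodes feruloyl-CoA 6'-hydroxylase, an enzyme of coumarin synthesis. In all 11, replicate 3 read highest and replicate 2 lowest in the wild type, on day 0 and again on day 3. In 10 of the 11, replicate 3 was also highest on upf3-1 day 3. On day 3, 10 of the 11 were not called in upf1-1, where 75.9% of all probe sets were not, and 9 were not called in upf3-1 (65.8% of all). The fit estimates the spread from all groups, so the wide wild type arrays that picked these 11 make a call less likely. Nothing is therefore read from the 2 counts. These members moved together between wild type arrays of a group, and the part of single arrays in their values was not tested.

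AT3G28510 read 4.85, 2.65 and 6.01 on day 0, then 7.20, 5.46 and 8.08 on day 3, then 7.48, 6.15 and 6.06 on day 6 in the wild type. In upf1-1 it read 2.69, 2.41 and 2.94 on day 0, then 2.73, 2.68 and 2.74 on day 3, then 4.34, 4.37 and 4.77 on day 6. It changed to day 6 by 1.81 (SE 0.77, limma adjusted p = 0.0757) in upf1-1 and 1.62 (SE 0.77, limma adjusted p = 0.0961) in upf3-1, neither called. All upf1-1 day 6 arrays nevertheless lay above its day 0 arrays. The SE is shared by all groups, among them the widely spread wild type arrays. Both changes were called under some of the 12 alternatives (limma adjusted p from 3.21e-05 to 0.175 in upf1-1 and from 0.0017 to 0.295 in upf3-1). AT3G13610 changed to day 3 by 0.75 (SE 0.51, limma adjusted p = 0.33) in upf1-1, not called, and rose by 2.42 (SE 0.51, limma adjusted p = 0.000619) in upf3-1. On day 3 upf3-1 exceeded upf1-1 for this gene by 1.64 (SE 0.51, limma adjusted p = 0.0421), a call lost under 6 of 12 alternatives (limma adjusted p from 0.00974 to 0.195). AT3G26470 was called in both mutants on day 3, with 1.36 (SE 0.31, limma adjusted p = 0.00192) in upf1-1 and 1.68 (SE 0.31, limma adjusted p = 0.00015) in upf3-1.

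**Figure D4:**
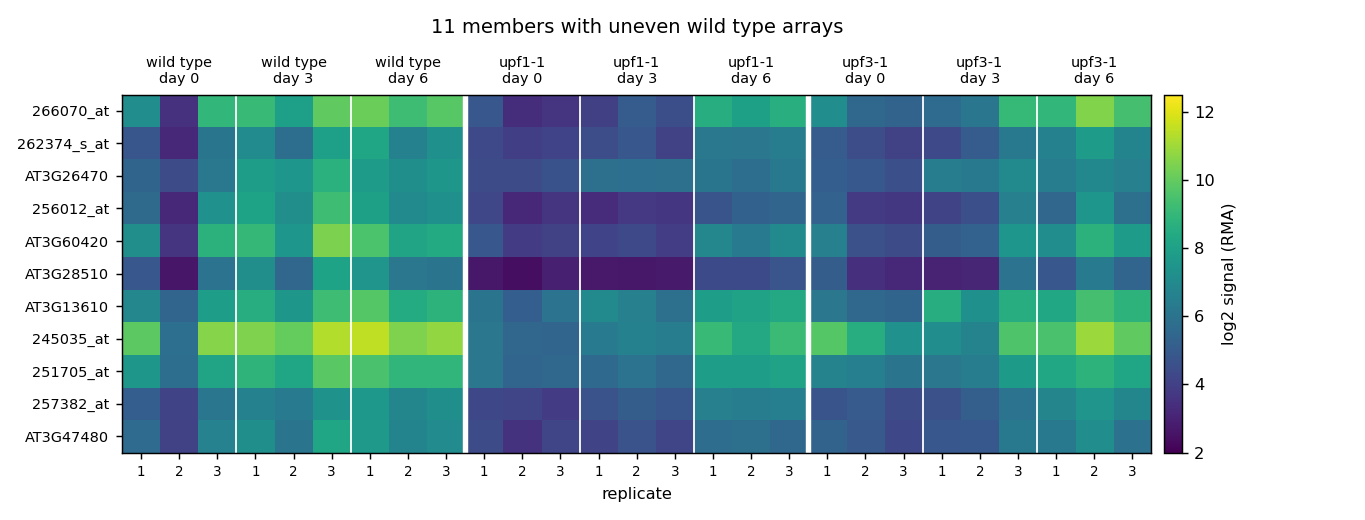
Log2 level (colour) of the 11 members whose wild type day 0 arrays span more than 1.5, on all 27 arrays. Wild type replicate 3 is the brightest and replicate 2 the darkest array of days 0 and 3 for all 11, and the upf1-1 arrays stay dark until day 6 for most.

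Of the 3 days, day 3 held the most calls between the 2 mutants. On day 0, 13 members were called higher and 6 lower in upf3-1 than in upf1-1, where 2.28% and 2.22% of all probe sets were. On day 3, 71 were called higher and 3 lower (5.5% and 4.5% of all), and on day 6, 16 higher and 0 lower (1.46% and 1.32% of all). The median difference over the members was 0.17 on day 0, 0.52 on day 3 and 0.37 on day 6. All upf3-1 arrays lay above all upf1-1 arrays for 44 members on day 0, 86 on day 3 and 71 on day 6, where 13.2%, 12.0% and 8.86% of all probe sets had such a separation. No wild type mean enters these differences, but the wild type arrays share in the estimate of spread behind each adjusted p. With a fit of only the groups compared, 9 members were called on day 6. The counts rest in part on single arrays. On day 3, 74 were called in either direction with all arrays, 42 without upf3-1 day 3 replicate 1 and 46 without upf1-1 day 3 replicate 2. On day 0, 19 were called, 9 without upf1-1 day 0 replicate 1 and 10 without upf3-1 day 0 replicate 2. On day 6, 16 were called, 6 without upf1-1 day 6 replicate 1, 8 without its replicate 2, 7 without upf3-1 day 6 replicate 2 and 6 without its replicate 3.

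The change from day 0 was tested for a difference between the mutants as well. By day 3, 22 members rose more in upf3-1 than in upf1-1 and 0 less, where 1.45% and 0.602% of all probe sets did. By day 6, 4 did and 0 less (0.677% and 0.251% of all). The day 3 count was 8, 40 and 11 without upf3-1 day 3 replicates 1, 2 and 3 in turn. It was 12 and 10 without upf1-1 day 3 replicates 2 and 3, 11 without upf1-1 day 0 replicate 1 and 12 without upf3-1 day 0 replicate 2. Of the 22, 5 have a single name: AT1G72140, AT2G16005, GSTU20, AT4G13860 and AT4G37180.

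AT2G16005, of the ML lipid-recognition domain family, had the largest named difference between the mutants. It read 4.09, 3.57 and 4.201 on day 0, then 5.69, 6.81 and 5.25 on day 3, then 6.28, 6.60 and 7.60 on day 6 in the wild type. In upf1-1 it read 3.61, 3.72 and 4.17 on day 0, then 6.81, 3.92 and 5.06 on day 3, then 3.81, 4.43 and 5.64 on day 6. In upf3-1 it read 4.34, 4.76 and 3.83 on day 0, then 10.99, 8.36 and 9.50 on day 3, then 6.35, 6.99 and 7.19 on day 6. The upf3-1 day 3 arrays were above all other arrays, although upf1-1 day 3 and upf3-1 day 3 each spread by more than 2. On day 3 upf3-1 exceeded upf1-1 by 4.36 (SE 0.62, limma adjusted p = 9.77e-05), and its change exceeded that of upf1-1 by 3.88 (SE 0.87, limma adjusted p = 0.02), a call lost under 3 of 18 alternatives (limma adjusted p from 0.00133 to 0.0698). In upf1-1 its change was 1.43 (SE 0.62, limma adjusted p = 0.101) on day 3 and 0.80 (SE 0.62, limma adjusted p = 0.362) on day 6, neither called.

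AT5G12110, an elongation factor 1-beta gene, was the member whose level differed between the mutants on all 3 days. Its day 0 arrays read 7.00, 7.09 and 6.78 in the wild type, 5.72, 5.80 and 6.09 in upf1-1 and 7.49, 7.42 and 7.41 in upf3-1. On day 6 they read 8.68, 8.66 and 8.46, 7.39, 6.88 and 6.67 and 8.87, 8.67 and 8.60. The upf1-1 arrays were below all others on each day. Levels in upf3-1 exceeded those in upf1-1 by 1.57 (SE 0.15, limma adjusted p = 5.08e-07) on day 0, 1.71 (SE 0.15, limma adjusted p = 1.68e-07) on day 3 and 1.73 (SE 0.15, limma adjusted p = 2.2e-07) on day 6. Its change to day 3, by contrast, was 1.503 in upf1-1 and 1.65 in upf3-1, and the difference of 0.15 (SE 0.21, limma adjusted p = 0.796) was not called.

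AT4G38080, a hydroxyproline-rich glycoprotein gene, and AT1G33055, to which no role is given here, also differed on day 0. For AT4G38080 the upf3-1 arrays read 5.64, 5.41 and 4.78 on day 0 and 8.30, 7.64 and 7.91 on day 3, and the upf1-1 arrays 3.81, 4.37 and 4.04 and 6.31, 5.85 and 6.36. The differences were 1.21 (SE 0.24, limma adjusted p = 0.00399) on day 0 and 1.77 (SE 0.24, limma adjusted p = 5.13e-05) on day 3. For AT1G33055 the difference was 1.08 (SE 0.16, limma adjusted p = 0.000211) on day 0 and 0.82 (SE 0.16, limma adjusted p = 0.0018) on day 3. AT5G11420, of the DUF642 family of cell wall proteins, differed later, by 1.13 (SE 0.19, limma adjusted p = 0.000615) on day 3 and 1.13 (SE 0.19, limma adjusted p = 0.0019) on day 6, the latter call lost under 1 of 12 alternatives (limma adjusted p from 0.000372 to 0.06).

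AT1G27030, to which no role is given here, had the highest rise of the named members in upf3-1 on day 6. Its day 0 arrays lay between 4.14 and 5.04 in all genotypes, and its day 6 arrays read 8.998, 9.19 and 9.42 in the wild type, 8.80, 8.69 and 9.71 in upf1-1 and 9.95, 10.14 and 9.96 in upf3-1. It rose to day 6 by 4.14 (SE 0.20, limma adjusted p = 2.22e-13) in upf1-1 and 5.22 (SE 0.20, limma adjusted p = 4.17e-15) in upf3-1. The day 6 difference between the mutants, 0.95 (SE 0.20, limma adjusted p = 0.00958), lost its call under 4 of 12 alternatives (limma adjusted p from 0.000208 to 0.11).

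Among the unnamed members, 248729_at and 247151_at had changes that differed between the mutants on both days under every alternative tried. The day 0 arrays of 248729_at read 8.14, 7.47 and 7.998 in the wild type, 8.95, 9.01 and 8.94 in upf1-1 and 6.60, 6.95 and 7.06 in upf3-1. Genotypes did not overlap on that day, and the level in upf3-1 minus that in upf1-1 was -2.096 (SE 0.20, limma adjusted p = 8.15e-07). Its change exceeded that of upf1-1 by 2.73 (SE 0.29, limma adjusted p = 9.23e-06) on day 3 and 2.32 (SE 0.29, limma adjusted p = 8.39e-05) on day 6. For 247151_at the differences of the changes were 1.26 (SE 0.19, limma adjusted p = 0.000858) and 1.21 (SE 0.19, limma adjusted p = 0.00198). The annotation used here names no gene for either.

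**Figure D5:**
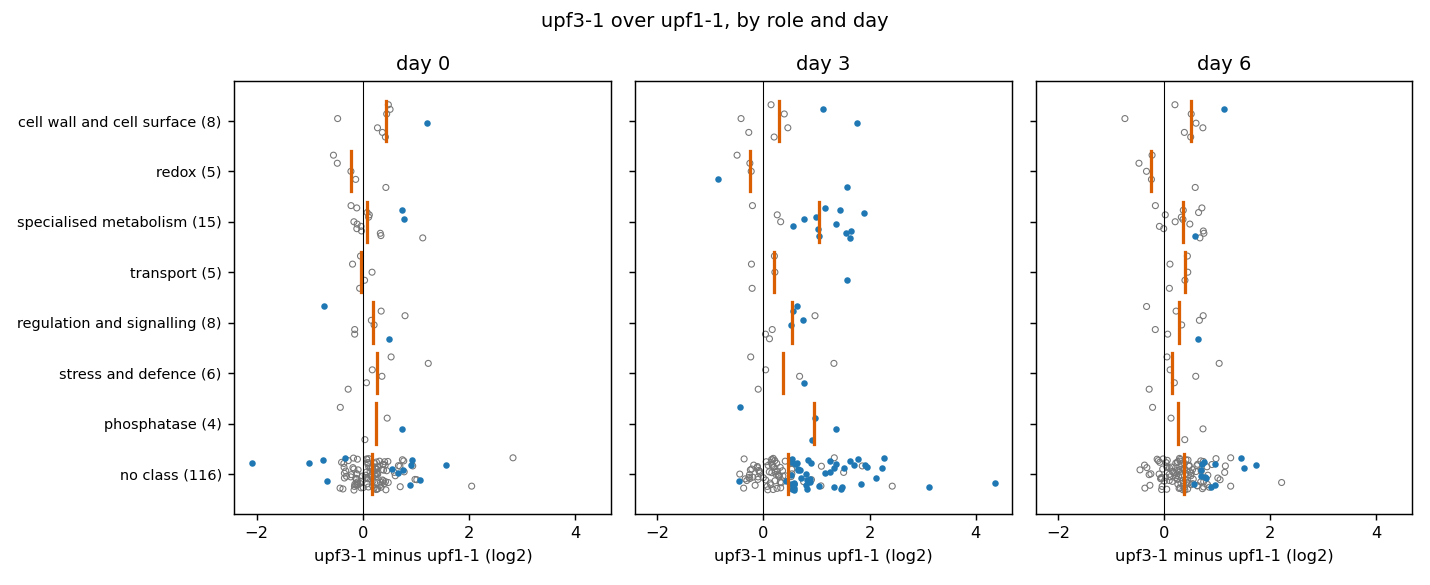
Level in upf3-1 minus level in upf1-1 (log2) for each member, by role class and by day. Filled blue points are called by limma, open grey points are not and orange bars are class medians; on day 3 the median of the 15 specialised metabolism genes is 1.04, and 12 of them are called higher.

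Pathway lists taken from textbook knowledge placed the members beside other genes of the same callus, and 33 of 224 listed genes could be read from a named probe set. Besides AT4G26010 the root hair list had 2 measured genes. The extensin gene AT5G06630 rose in the wild type by 0.91 (SE 0.14, limma adjusted p = 2.34e-05) on day 3 and 1.58 (SE 0.14, limma adjusted p = 5.08e-09) on day 6. Its probe set carries a suffix that marks possible cross-hybridisation, so its signal may be shared with other transcripts. XTH26, an enzyme gene of xyloglucan remodelling, differed by 0.18 (SE 0.18, limma adjusted p = 0.506) on day 3, not called, and rose by 0.67 (SE 0.18, limma adjusted p = 0.00507) on day 6. Of 9 measured early auxin response genes, 7 were called lower on day 3 in the wild type and 8 on day 6, with medians of -0.98 and -1.21, where 16.3% and 20.1% of all probe sets were called lower. BBM and PUCHI, transcription factor genes of callus founder cells, were -2.35 and -3.20 on day 3 and -3.14 and -3.38 on day 6 in the wild type, and were called lower in every genotype on both days. Of 6 photosynthesis genes, limma called 0 higher on day 3 in the wild type and 5 on day 6 (14.9% and 16.9% of all probe sets), against 2 on each day in upf1-1 (12.0% and 15.5% of all) and 2 and 6 in upf3-1 (15.6% and 19.5% of all). On day 3, 1 of the 6 was called lower in the wild type and 1 in upf1-1. The mutants started higher: array means of the 6 genes on day 0 were 6.26 to 6.56 in the wild type, 7.49 to 7.51 in upf1-1 and 7.03 to 7.20 in upf3-1. On day 6 they were 6.95 to 7.40, 7.82 to 8.03 and 7.77 to 8.05 in the same order. Fewer calls in upf1-1 thus do not mean lower levels there. The cytokinin list held ARR15 and RR16 only, both left out of the members by name and both called higher in every genotype on both days. Of 4 shoot meristem and leaf genes, 0 were called on day 3 in the wild type by limma, and 1 was called higher and 1 lower on day 6. The only measured gene of the phosphate and iron list was not called in the wild type. No gene of the nitrate, endodermis or xylem lists was measured by a named probe set, so those lists could not be checked. By the RefSeq table the 73 named members lay on chromosomes 1 to 5 in numbers of 17, 10, 18, 15 and 13.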

How the data were processed

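Transcript levels were measured with Affymetrix arrays on 27 RNA samples, 1 array each. The deposited tables hold log2 values of each probe set. The authors computed them with RMA, per the submitters' processing notes. No source used here gives its version. RMA gives every array the same distribution of probe signals, so a shift of most transcripts together would be removed. All arrays had a median of 6.57 and values ran from 2.04 to 13.48. Replicates of a group correlated at 0.992 to 0.997, and the nearest array of each of the 27 belonged to the same group. A second deposited table of the same log2 values differed by at most 0.

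Groups and replicate numbers come from the sample labels. The 64 control probe sets of 22810 were left out. In limma (version 3.58.1, R 4.3.3) all arrays entered a fit with 1 mean per group and eBayes, and p-values were adjusted by Benjamini and Hochberg over 22746 probe sets. Changes from day 0 within a mutant, upf3-1 minus upf1-1 on each day, and the difference of their changes were tested two-sided. On simulated data for upf1-1 day 3 over day 0 with 22746 probe sets, the fit recovered 50 of 67 changes of 1.5-fold, 63 of 67 of 2-fold and 65 of 66 of 4-fold, with 15 false calls. The simulated noise was independent for each probe set and array. It holds no shift shared by many probe sets of an array, so these numbers do not cover such shifts. The number of arrays limits the precision.

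The members, the lists and the role classes were chosen with earlier results of these data known. Named members are those with 1 symbol: the largest wild type differences, the smallest and largest changes in each mutant, members of the lists, the extremes of upf3-1 minus upf1-1 among called members, those nearest the threshold and those with the widest replicates. The other members named by role or delay were chosen after their values were seen. Names come from the platform's probe set annotation and a RefSeq gene table (TAIR10.1), used without coordinates. Of 7 comparisons of mutant groups, 0 had same-numbered replicates that deviated together in every pair (correlations from -0.164 to 0.209). The main test therefore has no replicate block, and wild type groups were not checked for pairing. Alternatives were a fit of only the groups compared, eBayes with trend and robust settings, a filter on dim probe sets (highest group mean at or above 6, passed by 165 members), centring on reference genes or on spiked-in control RNA, members without a suffix that marks cross-hybridisation (13 left out), a replicate block and leaving out each array. Promoter motifs were not analysed here.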

Additional observations from a re-analysis of the deposited data

Results flagged for a closer look

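The change from day 0 differed between the mutants for 9 of the members described one by one, and in each it was larger in upf3-1 than in upf1-1. All values are the upf3-1 change minus the upf1-1 change on the log2 scale, with limma's adjusted p. By day 3 the difference was 3.88 (SE 0.87, adjusted p = 0.02) for AT2G16005 and 1.53 (SE 0.40, adjusted p = 0.0466) for AT1G72140. It was 1.37 (SE 0.22, adjusted p = 0.00122) for AT4G37180 and 1.15 (SE 0.27, adjusted p = 0.0283) for GSTU20. It was 1.05 (SE 0.27, adjusted p = 0.0429) for AT4G13860, a call lost under 9 of 18 alternatives (adjusted p from 0.00871 to 0.137). The call of AT1G72140 was lost under 11 of 18 (adjusted p from 0.00535 to 0.151) and that of GSTU20 under 7 of 18 (adjusted p from 0.00757 to 0.0994). That of AT2G16005 was lost under 3 of 18 (adjusted p from 0.00133 to 0.0698).

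Among members without a name, 248729_at differed by 2.73 (SE 0.29, adjusted p = 9.23e-06) on day 3 and by 2.32 (SE 0.29, adjusted p = 8.39e-05) on day 6. For 247151_at the values were 1.26 (SE 0.19, adjusted p = 0.000858) and 1.21 (SE 0.19, adjusted p = 0.00198). For 259548_at they were 0.84 (SE 0.20, adjusted p = 0.0254) and 0.92 (SE 0.20, adjusted p = 0.0202), and for 245987_at 0.52 (SE 0.12, adjusted p = 0.0179) and 0.63 (SE 0.12, adjusted p = 0.00778). The last 2 lost their day 3 call under 6 of 18 alternatives each, with adjusted p from 0.0127 to 0.0783 for 259548_at and from 0.0102 to 0.148 for 245987_at. The day 6 call was lost under 5 of 18 for 259548_at (adjusted p from 0.0133 to 0.0751) and under 1 of 18 for 245987_at (0.00346 to 0.196).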

How the results depend on the processing

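The counts of members called higher over day 0 moved little under every alternative run: without single arrays they were 150 to 151 and 161 to 163 in upf1-1 on days 3 and 6, and 154 to 156 and 159 to 163 in upf3-1. The comparisons between the mutants moved more. Without single arrays the members called in upf3-1 over upf1-1 were 9 to 20 on day 0, 42 to 78 on day 3 and 6 to 24 on day 6, and for the difference of the changes 8 to 40 on day 3 and 3 to 6 on day 6. With arrays centred on spiked-in control RNA, 9 were called on day 0, 9 on day 6 and 2 for the difference of the changes on day 6. On day 6, 9 were called with only the groups compared and 31 with arrays centred on reference genes. The rule gave 284 members at a threshold of 1.2, 73 at 2, 343 with spike-in centring and 152 to 186 without single wild type arrays. Spike-in centring moved the median change of all probe sets on days 3 and 6 to 0.28 and 0.72 in the wild type, 0.15 and 0.47 in upf1-1 and 0.32 and 0.60 in upf3-1, since the spike-in signal fell over the days. Under it the members' median of upf1-1 minus wild type was 0.48 on day 0 and -0.057 on day 3, and that of upf3-1 minus wild type 0.53, 0.50 and 0.23 on days 0, 3 and 6. Without single arrays these medians were 0.10 to 0.18, -0.35 to -0.21 and -0.26 to -0.12 for upf1-1, and 0.21 to 0.29, 0.10 to 0.22 and 0.08 to 0.17 for upf3-1.

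The 377 tested values of 77 members were each refitted under every alternative that applied, and the counts here are of refits. A value can thus count several times. In 198 refits a call was lost and in 17 gained, 4375 refits kept their side and 8 turned sign, none of them called. The 8 are changes to day 3. AT2G25510 in upf1-1 was 0.091 with spike-in centring and ran from -0.14 to 0.011 without single arrays, the highest without upf1-1 day 3 replicate 1. AT3G28510 ran from -0.098 (without upf1-1 day 0 replicate 2) to 0.17 in upf1-1, and in upf3-1 from -0.85 (without upf3-1 day 3 replicate 3) to 0.73, with -0.10 and -0.23 without upf3-1 day 0 replicates 2 and 3. AT3G60420 in upf1-1 ran from -0.34 to 0.14 (without upf1-1 day 0 replicate 1), and AT1G19960 in upf3-1 from -0.24 (without upf3-1 day 3 replicate 3) to 0.84. The causes were not tested. With the replicate number as a block, 151 and 163 members were called higher in upf1-1 on days 3 and 6 and 155 and 162 in upf3-1, and 18, 71 and 13 were called in upf3-1 over upf1-1 on days 0, 3 and 6. The difference of the changes gave 20 and 4 on days 3 and 6. The labels do not say that the numbers pair the samples. The check covered mutant groups only, so it cannot tell whether wild type arrays were paired.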
